A study of Rattus norvegicus with 4 samples.

Results

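The miR-532 cluster is a group of microRNAs (miRNAs), short RNAs that guide the silencing of messenger RNAs, whose hairpins lie within the Clcn5 gene on the X chromosome. Its members were chosen by name from the deposited tables: names without an asterisk, with the number of miR-188, miR-362, miR-500, miR-501, miR-502, miR-532 or miR-660, with or without a 5p or 3p ending. Of the 680 listed rat miRNA names, 6 met this rule, namely miR-188, miR-362, miR-500, miR-501, miR-532-3p and miR-532-5p. Reads were found for 5 of the 6. miR-502 and miR-660 were not analysed here. Total RNA of rat liver was sequenced as small RNA libraries from tissue labelled as hepatic fibrosis and from tissue labelled as normal, with 2 replicates under each label. The sources used here do not give the way the fibrosis was produced, the strain, sex or age of the rats, or whether replicates came from separate animals.

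The second fibrosis file and the second normal file hold the same values for all 680 names, with 0 differences. They were counted once, as the shared library, whose tissue the labels leave unsettled. The value column of the second fibrosis file is headed with that sample's title and that of the second normal file is not. The report thus rests on 3 distinct libraries: fibrosis replicate 1 (the fibrosis library), normal replicate 1 (the normal library) and the shared library. The libraries had been scaled to 6357069 to 7070374 reads, and the cluster drew 348 reads in the fibrosis library, 247 in the normal library and 327 in the shared library. The tissue label was checked against the hepatocyte miRNAs miR-122, miR-192 and miR-194, which were abundant in each library and summed to 251792 reads per 1000000 reads (RPM) in the fibrosis library, 272148 RPM in the normal library and 255470 RPM in the shared library. Of the markers of other liver cells, the leukocyte pair (miR-142-5p and miR-223) summed to 40.4, 26.7 and 57.3 RPM in the same library order, the mesenchymal list (miR-199a-3p, miR-143 and miR-145) to 663, 462 and 1002 RPM, the erythroid pair (miR-451 and miR-144) to 2.88, 7.78 and 2.05 RPM, and the endothelial miR-126 to 1.73, 1.13 and 2.67 RPM. No marker was at 0. Like miR-532-5p below, both listed leukocyte markers, the endothelial miR-126 and, of the mesenchymal list, miR-199a-3p were lowest in the normal library. The other mesenchymal markers went the other way, with miR-143 at 62.1, 97.3 and 91.2 RPM and miR-145 at 9.21, 13.7 and 6.92 RPM, so the mesenchymal sum followed miR-199a-3p. All 3 hepatocyte and both erythroid markers were highest in the normal library. Counts were small for miR-223 (7, 2 and 8 reads in the same library order) and miR-126 (12, 8 and 17 reads). Names outside the lists were mixed. Of leukocyte names, miR-342-3p (37, 59 and 30 reads) was highest in the normal library, and miR-150 (7, 4 and 11 reads) was lowest there. A further leukocyte name, miR-511* (84, 93 and 146 reads), was lowest in the fibrosis library. The other arm of miR-142, miR-142-3p (3, 5 and 4 reads), was highest in the normal library. The other arm of miR-199a, miR-199a-5p (14, 17 and 9 reads), was highest in the normal library. The part of these cell types in the values of the cluster was not tested. In such bulk tissue, fewer cells of a type and less RNA per cell cannot be told apart.

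Clcn5 encodes a chloride and proton exchanger of endosomes, known best from the kidney, where its loss causes Dent disease. A miRNA hairpin is cut by Dicer into a short duplex. One strand, from the 5′ (5p) or the 3′ (3p) side of the hairpin, is usually kept in an Argonaute protein, and the other is mostly degraded. The kept strand finds its targets mainly through its seed, bases 2 to 8, so the arms of one hairpin have different targets although they come from one transcript. miR-532-5p has been reported to repress the tumour suppressor RUNX3 in human gastric cancer cells, miR-362-5p to repress the deubiquitinase CYLD in human cancer cells, and miR-188 and miR-501-3p to act at synapses in rodent neurons.

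The RefSeq tables for the GRCr8 build held hairpins for 5 of the 7 numbers and 9 mature arms. The deposited tables carry no coordinates, and their build was rn5, so the places below are RefSeq's. All 5 hairpins lie on the plus strand of the X chromosome inside the span of Clcn5, which reads from the same strand. Their order is Mir532 (chrX:17919185-17919263), Mir188 (chrX:17919585-17919664), Mir362 (chrX:17926485-17926549), Mir501 (chrX:17927189-17927272) and Mir500 (chrX:17930647-17930726). Together they cover 11542 bases, with gaps of 321, 6820, 639 and 3374 bases. Whether they fall in an intron was not analysed here, since the tables used give gene spans. A further hairpin, Mir3560, overlaps Mir501 on the other strand, and miR-3560 had no read in any library.

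The Mir532 hairpin carried nearly all reads of the cluster, so it is shown whole, 5′ to 3′, with the 5p arm and then the 3p arm in capitals. The Mir362 hairpin is shown beside it because its asterisk name drew more reads than its plain name, with its 3p arm, the only mature sequence of that hairpin in the table, in capitals.
Mir532: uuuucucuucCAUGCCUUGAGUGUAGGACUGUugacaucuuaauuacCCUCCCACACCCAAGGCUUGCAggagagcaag
Mir362: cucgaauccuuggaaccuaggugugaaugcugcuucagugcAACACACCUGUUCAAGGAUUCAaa

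The 9 mature arms are set out in genome order to compare their seeds, which are in capitals. Outside miR-532 the deposited names give no arm, so the row of miR-188, miR-362, miR-500 or miR-501 cannot be tied here to 1 of the sequences of its hairpin.
miR-532-5p: cAUGCCUUgaguguaggacugu
miR-532-3p: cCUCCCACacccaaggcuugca
miR-188-5p: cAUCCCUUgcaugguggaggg
miR-188-3p: cUCCCACAugcaggguuugc
miR-362-3p: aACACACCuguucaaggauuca
miR-501-5p: aAUCCUUUgucccuggguga
miR-501-3p: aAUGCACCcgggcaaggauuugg
miR-500-5p: aAUCCUUGcuaucugggugcuuag
miR-500-3p: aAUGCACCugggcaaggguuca

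The 9 arms held 8 distinct seeds, and the only pair to share one was miR-500-3p and miR-501-3p. These were also the most alike in full length, with the same base in 18 of 23 aligned positions, and their hairpins matched in 62 of 85. The sources used here do not say how reads that fit several miRNAs were counted, so the separate values of miR-500 and miR-501 are uncertain. miR-532-3p and miR-188-3p share the run CUCCCACA and matched in 16 of 22 aligned positions, but the run starts 1 base earlier in the mature miR-188-3p, which gives the arms different seeds. The closest of 692 other rat arms to miR-532-5p was miR-25-3p, with 16 of 24 aligned positions alike, and its seed recurred only in miR-511-5p.

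miR-532-5p dominated the cluster. It stood at 46.5 RPM in the fibrosis library (323 reads, 95% exact Poisson interval 41.5 to 51.8), 30.8 RPM in the normal library (218 reads, 26.9 to 35.2) and 48.8 RPM in the shared library (310 reads, 43.5 to 54.5). The fibrosis library and the shared library had intervals that overlapped each other, and the normal library lay below both. These intervals, and all others here, cover counting error only. By level miR-532-5p ranked 41 among the listed names in the fibrosis library, 46 in the normal library and 41 in the shared library. It took 92.8% of the cluster's reads in the fibrosis library (exact binomial interval 89.6 to 95.3), 88.3% in the normal library (83.6 to 92.0) and 94.8% in the shared library (91.8 to 96.9). The cluster's reads are here those of its members, so all such shares leave out the asterisk names of its hairpins. Those names together drew 8, 16 and 6 reads in the same library order, and counting them would lower the shares.

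miR-532-3p, cut from the other side of the same hairpin, was the next most abundant member and followed a different order. It stood at 2.73 RPM in the fibrosis library (19 reads, 1.65 to 4.27), 3.82 RPM in the normal library (27 reads, 2.52 to 5.56) and 1.89 RPM in the shared library (12 reads, 0.975 to 3.30). The library with the least miR-532-5p thus held the most miR-532-3p, although the 3 intervals for the 3p arm overlapped. Its share of the cluster's reads was 5.46% in the fibrosis library (3.32 to 8.40), 10.9% in the normal library (7.33 to 15.5) and 3.67% in the shared library (1.91 to 6.32).

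The other 4 members were at the edge of detection, together 6 reads in the fibrosis library, 2 in the normal library and 5 in the shared library. A count of 0 was taken to allow up to 3 reads, which is 0.432, 0.424 and 0.472 RPM in these libraries. The upper ends of the exact Poisson intervals used above are higher for 0 reads, at 0.531, 0.522 and 0.580 RPM. miR-188, whose hairpin starts 321 bases beyond the end of Mir532, had 1 read in the fibrosis library and 0 in both other libraries. miR-501 had 0 reads in all 3. miR-500 had 1 read in the fibrosis library (0.144 RPM), 0 in the normal library and 5 in the shared library (0.787 RPM, 0.255 to 1.84). miR-362 had 4 reads in the fibrosis library (0.575 RPM, 0.157 to 1.47), 2 in the normal library (0.283 RPM, 0.0343 to 1.02) and 0 in the shared library. Hairpins that neighbour Mir532 on the same strand were thus read far less than its 5p arm in every library.

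Names with an asterisk mark the minor arm of a hairpin in this older naming, but at Mir362 the asterisk name drew more reads. Several hairpins outside the cluster did the same, so this is not particular to Mir362. In the fibrosis library miR-140* had 6118 reads against 1 of miR-140, miR-423* 7470 against 13 and miR-322* 353 against 29. miR-362* had 8 reads in the fibrosis library (1.15 RPM, 0.497 to 2.27), 15 in the normal library (2.12 RPM, 1.19 to 3.50) and 6 in the shared library (0.944 RPM, 0.346 to 2.05). In each library it outnumbered miR-362. The ratio of miR-362* to miR-362 was 2.0 in the fibrosis library (0.536 to 9.08) and 7.5 in the normal library (1.74 to 67.6), and in the shared library it had no upper bound, with a lower bound of 1.18. Only the interval of the fibrosis library included 1. Like miR-532-3p, miR-362* was highest in the normal library, with overlapping intervals. Of the other asterisk names, miR-501* had 1 read, in the normal library, while miR-188* and miR-500* had 0 reads in all 3 libraries.

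**Figure D1:**
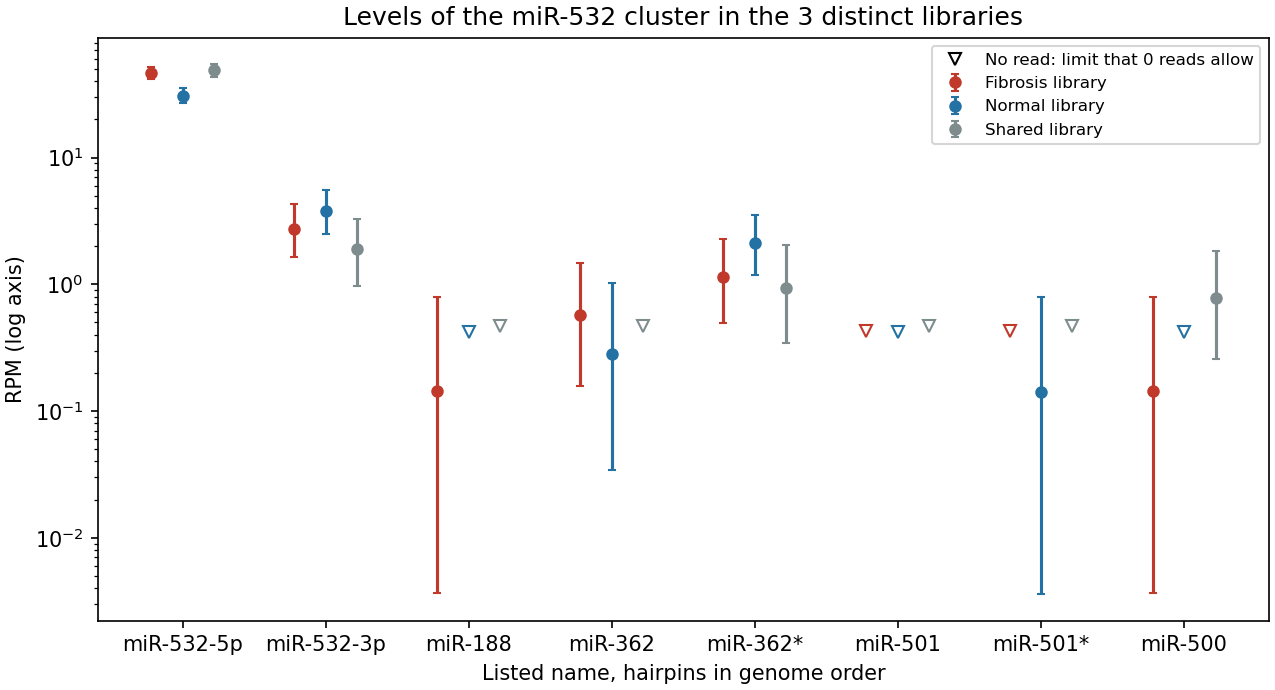
Level of each listed name in RPM on a log axis, with 95% exact Poisson intervals, in the fibrosis, normal and shared libraries. Open triangles mark libraries with no read, at the limit taken for 0 reads, which is the level of 3 reads. miR-532-5p stands at 30.8 to 48.8 RPM, above all other names, and miR-188* and miR-500*, which had no read, are left out.

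Set side by side, the arms of miR-532 lay on opposite sides of 1 in the ratio of the fibrosis library to the normal library. The cluster was proposed with this contrast in view and each side has 1 library, so these ratios describe a pair of libraries, without a test of the conditions. For miR-532-5p the ratio was 1.51 (1.27 to 1.80), and for miR-532-3p it was 0.716 (0.376 to 1.34), an interval that included 1. The shared library over the normal library gave 1.58 (1.33 to 1.89) for miR-532-5p and 0.494 (0.228 to 1.01) for miR-532-3p. The shared library over the fibrosis library gave 1.05 (0.895 to 1.23) for miR-532-5p and 0.691 (0.306 to 1.498) for miR-532-3p. These comparisons share libraries and are not separate evidence. For miR-362 the ratio of the fibrosis library to the normal library was 2.03, with an interval from 0.292 to 22.5.

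Summed over the 6 members, the cluster stood at 50.1 RPM in the fibrosis library (44.9 to 55.6), 34.9 RPM in the normal library (30.7 to 39.6) and 51.4 RPM in the shared library (46.0 to 57.3). The sum followed miR-532-5p: its ratio of the fibrosis library to the normal library was 1.43 (1.21 to 1.69), and without miR-532-5p the other members gave 0.877 (0.492 to 1.55), from 25 reads in the fibrosis library and 29 in the normal library. Per 1000000 reads on listed miRNAs the members drew 99.2 reads in the fibrosis library, 67.6 in the normal library and 97.9 in the shared library, so the normal library was the lowest by either total, while the fibrosis and shared libraries, whose intervals overlapped, exchanged places.

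Reads in both libraries and a mean level of 1 RPM or more were found for 147 miRNAs, of which 12 (8.16%) were at least 1.5-fold higher in the fibrosis library than in the normal library and 16 (10.9%) at least 1.5-fold lower. Other scalings moved that division, to 17 higher and 13 lower with TMM (the trimmed mean of M-values, edgeR's default) and to 8 and 22 with upper-quartile factors. miR-532-5p was 1 of the 12, just past the threshold, and did not reach it with upper-quartile factors (1.43) or when miR-122 was taken out of the total (1.47). miR-532-3p was within 1.5-fold. The median ratio of the 147 was 0.916. In log2 terms miR-532-5p lay at 0.59 and miR-532-3p at -0.48, against a median of -0.13. For the shared library over the normal library, 13.5% of 148 miRNAs were at least 1.5-fold higher, among them miR-532-5p, and 28.4% at least 1.5-fold lower, among them miR-532-3p. Across all 294 miRNAs with a read, 0 (0%) had an adjusted p under 0.05 in limma, run on log2(RPM + 1), with the shared library counted as fibrosis, and 0 with it counted as normal. In limma the number at an unadjusted p under 0.05 depended on low-level names. It was smaller, also as a share, with a mean of at least 1 RPM, so it is not read as an excess. The quasi-likelihood test of edgeR on recovered reads called 0 in both layouts (9 and 1 at an unadjusted p under 0.05), and DESeq2 0 (2 and 0).

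**Figure D2:**
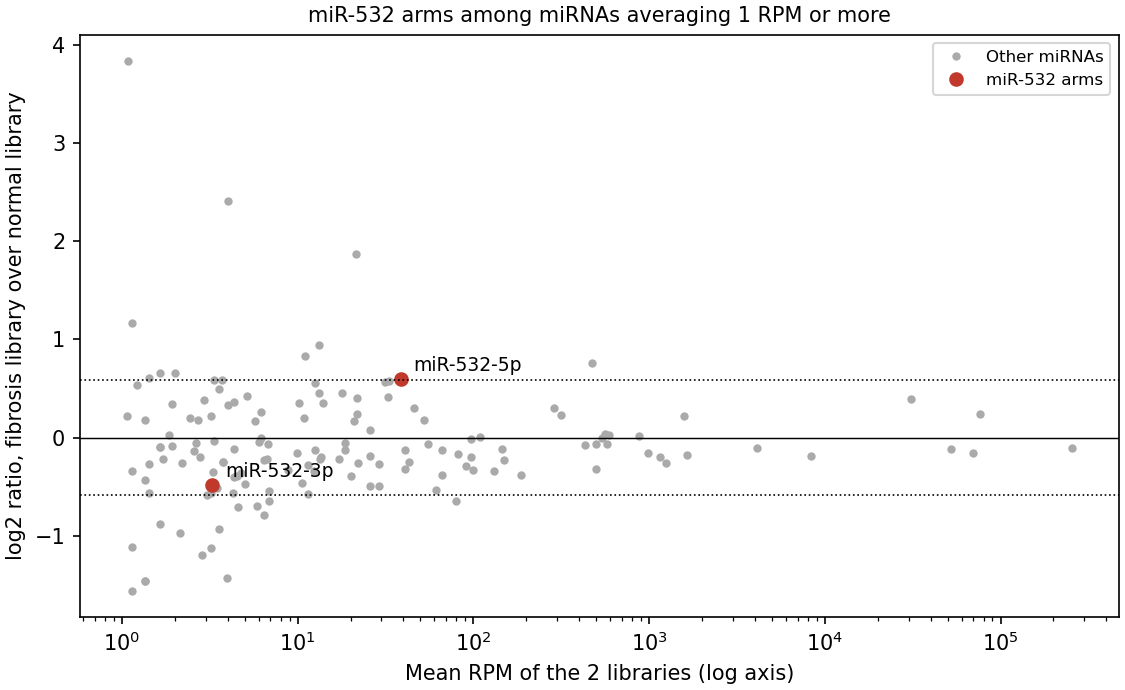
Log2 ratio of the fibrosis library over the normal library against mean RPM (log axis) for 147 miRNAs averaging 1 RPM or more; red points are the miR-532 arms and dotted lines mark 1.5-fold. miR-532-5p lies at 0.59, on the upper line, and miR-532-3p at -0.48, inside the lower line.

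The balance of the arms can be read within a library, free of depth and scaling. It is a ratio of reads. How evenly the library preparation takes up the different sequences of the arms was not tested. miR-532-5p outnumbered miR-532-3p by 17.0 to 1 in the fibrosis library (exact binomial interval 10.7 to 28.6), by 8.07 to 1 in the normal library (5.40 to 12.5) and by 25.8 to 1 in the shared library (14.6 to 50.5). Put as a share, the 3p arm made up 5.56% of the miR-532 reads in the fibrosis library (3.38 to 8.54), 11.0% in the normal library (7.39 to 15.6) and 3.73% in the shared library (1.94 to 6.42). The 5p arm was the major one in all 3 libraries. The arm ratio in the fibrosis library was 2.11 times that in the normal library (conditional exact interval 1.10 to 4.11), and in the shared library 3.20 times that in the normal library (1.52 to 7.08). The shared library stood at 1.52 times the fibrosis library, with an interval from 0.687 to 3.49 that included 1. The values rest on 12 to 27 reads of the 3p arm.

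For comparison the same quantity, the more abundant arm over the other, was computed for each hairpin with both arms named and at least 10 reads of each arm over a pair of libraries. Of 32 such hairpins, 9 (28.1%) differed at least 1.5-fold between the fibrosis library and the normal library, 5 of them higher and 4 lower in the fibrosis library, and the median difference in either direction was 1.27-fold. miR-532 was among the 9, and 3 hairpins lay farther from 1, namely miR-151 (2.95, 1.03 to 8.65), miR-674 (2.65, 0.869 to 9.66) and miR-30b (2.59, 0.932 to 7.31). The interval excluded 1 for 2 of the 32, miR-532 and miR-151. Among 32 separate 95% intervals, some can exclude 1 from counting error alone. Between the shared library and the normal library, 17 of 33 hairpins (51.5%) differed at least 1.5-fold and 6 intervals excluded 1, that of miR-532 among them. Between the shared library and the fibrosis library, 16 of 33 (48.5%) differed at least 1.5-fold, miR-532 at 1.52 just among them. There 6 intervals excluded 1, and that of miR-532 did not. Arm ratios that differed at least 1.5-fold between libraries were therefore common in these files, but most of the intervals included 1. No test was made that would set miR-532 apart from the other hairpins. Mir362, with 4 reads or fewer of miR-362 in each library, gave 0.267 for its own arm ratio in the fibrosis library over the normal library, with an interval from 0.0209 to 2.45.

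**Figure D3:**
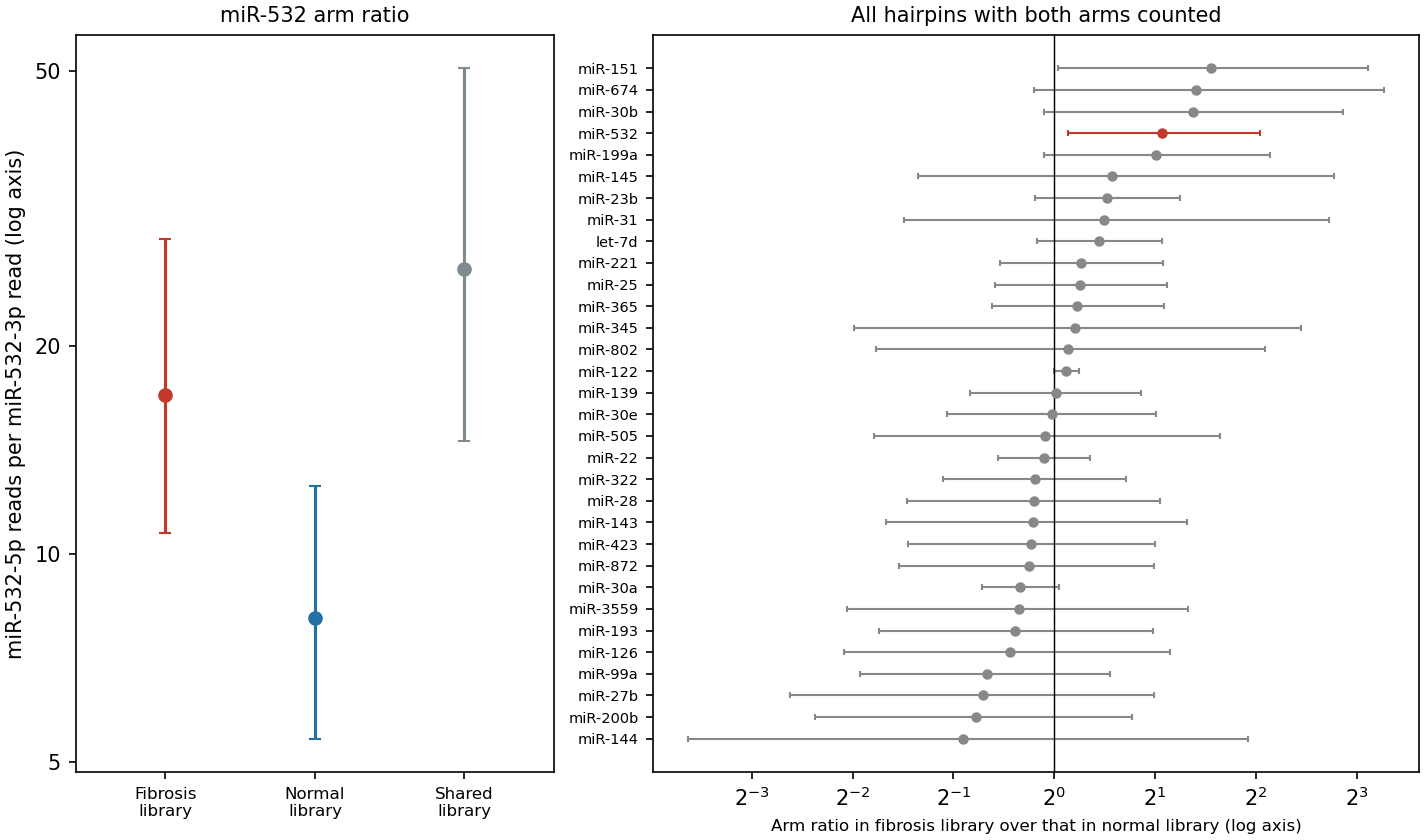
Left, miR-532-5p reads per miR-532-3p read on a log axis in each library, with 95% exact binomial intervals; right, arm ratio in the fibrosis library over that in the normal library for 32 hairpins, with 95% conditional exact intervals and miR-532 in red. The ratio is 17.0 in the fibrosis library, 8.07 in the normal library and 25.8 in the shared library, and on the right miR-532 lies near the top at 2.11.

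The miRNAs closest to the summed cluster across the 3 libraries were sought among the 72 others with a mean of at least 10 RPM, by the Euclidean distance between log2 levels relative to the mean of the libraries. In order they were miR-27b (distance 0.0462), miR-872 (0.0826), miR-99b (0.154), let-7b (0.178) and miR-322* (0.198), against a median distance of 0.603. miR-27b, which is made with miR-23b and miR-24 and is linked to lipid metabolism in liver, stood at 20.6 RPM in the fibrosis library, 15.0 RPM in the normal library and 21.4 RPM in the shared library. miR-872 stood at 24.9, 18.8 and 26.4 RPM in the same order. All 5, like the cluster, were lowest in the normal library, which follows from their choice by closeness to the cluster. With 3 libraries such a likeness describes these libraries only.

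**Figure D4:**
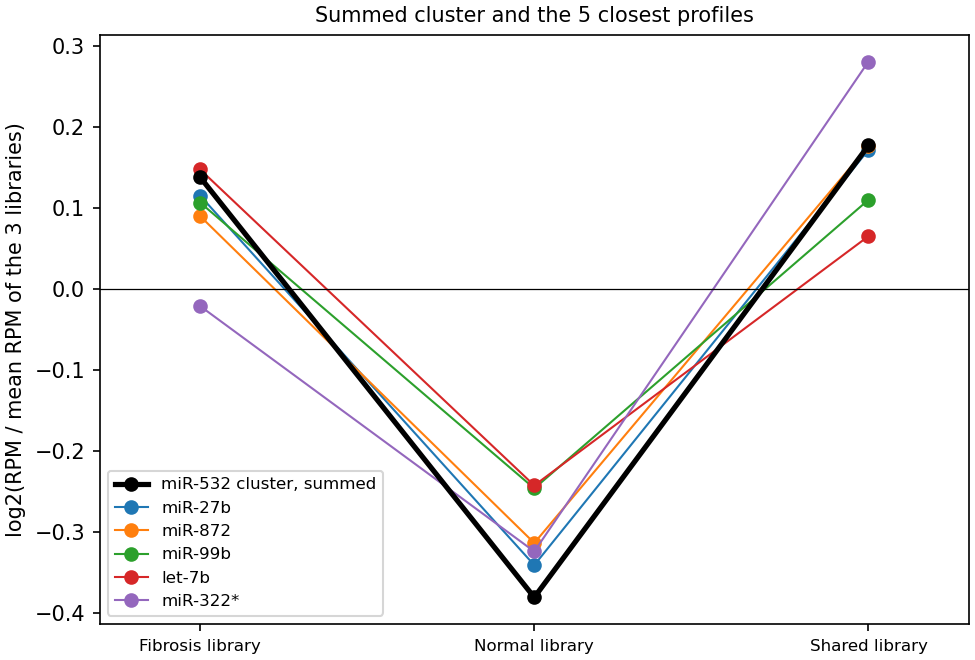
Log2 of RPM over the mean RPM of the 3 libraries for the summed cluster (black) and the 5 miRNAs with the closest profiles; lines only join the points of a miRNA. All 6 profiles are lowest in the normal library, where the summed cluster lies at -0.38. For the 5 miRNAs this follows from their choice by closeness.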

How the data were processed

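The authors made small RNA libraries from total RNA of rat liver using Illumina's small RNA kit, per the labels' protocols. CASAVA 1.4 and the build rn5 are named, per the submitters' processing notes; the aligner, the miRNA annotation and the treatment of reads that fit several miRNAs are not stated in the sources used. Each deposited file gives 680 names with RPM, reads per 1000000 reads, scaled by the authors to a total that includes other reads. These RPM are whole multiples of what 1 read is worth. Division by it returned a whole number, within 0.01 reads, for 100% of the nonzero values. The value column's header equals the sample's title in 3 of the 4 files and differs in the second normal file, 1 of the 2 identical files; groups came from the tissue label, and the header was not used to place the shared library.

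The members and lists were chosen with earlier results of these data known. The rule for names covered all members, the asterisk names of the same hairpins and the 5 closest profiles; the comparison of arm ratios over all hairpins was added after seeing the data. Ratios carry 95% Clopper-Pearson intervals and arm ratio folds conditional exact intervals (Python 3.11.15, numpy 2.4.6, pandas 2.3.3, scipy 1.17.1), with plots by matplotlib 3.10.9. Reads carry no molecular identifiers and are not independent molecules, so intervals and limits cover counting error only. Whole-table fits used limma 3.58.1 on log2(RPM + 1), with edgeR 4.0.16 and DESeq2 1.42.0 on recovered reads (R 4.3.3) and Benjamini-Hochberg adjustment; each fit takes the spread of the group with 1 library from the group with 2. Interval and fit code was tested on simulated data. Mature and hairpin sequences came from RefSeq (GRCr8) and were aligned globally with Biopython 1.88.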

Additional observations from a re-analysis of the deposited data

How the results depend on the processing

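The ratio of the fibrosis library to the normal library kept its side of 1 for miR-532-5p, miR-532-3p, miR-362 and the summed members under all 8 alternatives, which covered 5 scalings, 1 RPM added, and the shared library averaged with either replicate. The ranges were 1.17 to 1.58 for miR-532-5p, 0.605 to 0.958 for miR-532-3p, 1.02 to 4.07 for miR-362 and 1.16 to 1.502 for the sum. Most of these alternatives could hardly change a side. Adding 1 RPM to both libraries cannot carry a ratio across 1, and the scalings kept miR-532-5p within 1.43 to 1.58. For miR-362 the counting interval, 0.292 to 22.5, included 1, so its direction is not known. Averaging the shared library with the normal library moved miR-532-5p to 1.17 and the sum to 1.16, below their counting intervals. The number of members past 1.5-fold, 1 with the deposited RPM, was 0 with upper-quartile factors, 0 with miR-122 left out, 0 at 2-fold and 2 with no minimum level, where miR-362 enters on 4 reads against 2. Leaving out 1 library at a time gave a pooled arm ratio of miR-532 of 11.8 to 20.4, against 14.7 with all 3, the highest without the normal library. It gave shares of the cluster's reads of 90.9% to 93.8% for miR-532-5p, 4.59% to 7.73% for miR-532-3p, 0.348% to 1.01% for miR-362, 0.168% to 0.889% for miR-500 and 0% to 0.168% for miR-188. For miR-500 the lowest came without the shared library, and for miR-188 the 0 came without the fibrosis library, which held its only read. Whole-table calls stayed at 0 under each pseudocount, filter and tool run, and also with all 4 files as labelled, where limma called 0 without and 0 with the replicate block; since 1 library then stands in both groups, a pairing by replicate number has no meaning here. No whole-table fit was made without a further library, since 1 library against 1 leaves no spread to test with. The lack of calls with 2 libraries against 1 does not show that no miRNA differs. The power of these fits is not given here. Depth limits miR-188, miR-362, miR-500 and miR-501, each with 5 reads or fewer in every library, and the 3p arm to 12 to 27 reads.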
